A study of Rattus norvegicus with 9 samples.

Results

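The leptin receptor gene Lepr (Gene ID 24536) and the neurokinin 1 receptor gene Tacr1 (24807) were followed across 9 fetal lungs of Sprague-Dawley rats, together with the leptin gene Lep (25608), the tachykinin precursor gene Tac1 (24806) and Leprot (56766), the gene next to Lepr. These are 5 of the 17465 genes in the table, and 3 of them, Lepr, Leprot and Tacr1, passed the filter on low counts. Lepr and Tacr1 were chosen by their values in the comparison of treated with control lungs, by their p-values in an earlier analysis of the same libraries, and the other members were added because they are the ligand genes or the neighbour. The treated-against-control values of Lepr and Tacr1 are therefore a description, and the other comparisons of both genes share libraries with it.

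There were 3 groups of 3 libraries. Control lungs carried no treatment, hypoplastic lungs (underdeveloped lungs, in this series the result of oligohydramnios, a lack of amniotic fluid) carried no treatment either, and treated lungs were hypoplastic lungs given AFSC-EVs, extracellular vesicles released by amniotic fluid stem cells. The sources used here do not give fetal age, the way the fluid was reduced, or the vesicle dose, route and timing, and nothing in the labels says whether lungs of different number came from separate litters, so p-values measure the spread between these libraries only. Library totals ran from 56922779 to 88243188 estimated counts. The lung identity of the tissue was visible in alveolar type II cell markers: Sftpc, the surfactant protein C gene, was at 292 CPM or more in every library. Levels in CPM are counts divided by library size after scaling of library sizes by the TMM method, and they are not compared between genes because transcript lengths were not used. Some libraries stood apart. Myh6, a heart muscle myosin gene, was at 70.9 and 28.2 CPM in hypoplastic libraries 1 and 2 and at 3.13 CPM or less in the other 7. Col1a1, a collagen gene of fibroblasts, was at 5820 CPM in hypoplastic library 2 against 599 to 1860 CPM in the others. In control library 2 the surfactant gene Sftpb was at 2010 CPM, against 763 to 1360 CPM in the others. The leukocyte marker Csf1r was at 8.37 CPM there, against 22.8 to 76.1 CPM.

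Leptin is a hormone made mainly by fat cells and, in the developing lung, described in lipid-laden interstitial fibroblasts, from which it is thought to act on alveolar type II cells and surfactant production. Its receptor is a single-pass cytokine receptor of the gp130 type that signals through the kinase JAK2 and the transcription factor STAT3, and that is made as long and short forms from the same gene. Leprot is transcribed from the same locus and encodes a small membrane protein of the endosome and Golgi that limits how much leptin receptor reaches the cell surface. Tac1 encodes the precursor of substance P and neurokinin A, peptides of sensory nerves, and Tacr1 encodes the G-protein-coupled receptor that binds substance P, known in the airways for effects on smooth muscle tone, vessel leak and secretion.

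The sequences just before the annotated starts of the 3 members that passed the filter are shown. Those of Lepr and Leprot display the arrangement of the locus they share, and Tacr1 was, like Lepr, chosen by its values. All 5 members matched the RefSeq promoter table of assembly GRCr8 by gene ID. Each run is the 250 bases before the start on the plus strand, 5′ to 3′, from chr5:121409485-121409734 (Lepr), chr5:121404920-121405169 (Leprot) and chr4:116478367-116478616 (Tacr1), and capitals mark motif matches.
Lepr: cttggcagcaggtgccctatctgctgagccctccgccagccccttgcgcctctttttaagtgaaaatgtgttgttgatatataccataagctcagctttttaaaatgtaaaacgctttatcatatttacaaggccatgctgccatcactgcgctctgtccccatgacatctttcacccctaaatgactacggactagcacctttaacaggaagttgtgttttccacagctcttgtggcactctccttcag
Leprot: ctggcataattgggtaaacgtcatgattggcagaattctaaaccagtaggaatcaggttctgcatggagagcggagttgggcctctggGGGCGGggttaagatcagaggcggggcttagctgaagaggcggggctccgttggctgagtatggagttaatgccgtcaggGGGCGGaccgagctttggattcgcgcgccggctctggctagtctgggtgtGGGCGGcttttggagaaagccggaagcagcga
Tacr1: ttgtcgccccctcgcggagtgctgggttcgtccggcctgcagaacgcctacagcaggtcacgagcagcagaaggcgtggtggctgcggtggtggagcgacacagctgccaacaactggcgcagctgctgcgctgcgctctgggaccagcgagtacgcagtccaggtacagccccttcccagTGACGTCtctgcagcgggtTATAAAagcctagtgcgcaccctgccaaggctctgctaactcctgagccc
The start listed for Lepr lies inside the Leprot gene on the same strand, 4565 bases after the Leprot start. Gene-level counts do not separate the long from the short receptor forms, and reads from sequence that both genes share could be counted for either gene.

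Both strands of the windows, each with 50 further bases after the start that are not shown, were searched for the TATA box TATAAA, the cyclic AMP response element core TGACGTC, the STAT site TTCNNNGAA, the GC box GGGCGG and the E-box CACGTG. No match overlapped a match of another motif. The Tacr1 window holds 1 TATAAA, at bases -50 to -45, and 1 TGACGTC, at bases -69 to -63, motifs found in 14.2% and 3.22% of 33469 RefSeq windows of the same length. The Leprot window holds 3 copies of GGGCGG, a motif found in 33.1% of windows, while the Lepr window holds none of the 5 motifs. TTCNNNGAA (8.87% of windows) was in none of these 3 windows, and CACGTG (6.42%) was likewise in none of them. The Lepr window had 47.7% G or C and 5 CpG dinucleotides, against 59.0% and 19 for Leprot, 62.7% and 21 for Tacr1, and medians of 51.7% and 7 over all windows. The matches describe letters in these windows only.

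Lepr was lower in both groups of hypoplastic lungs than in control lungs. Its level was 25.2, 37.9 and 27.3 CPM in control libraries 1, 2 and 3, 13.5, 9.85 and 13.7 CPM in the untreated hypoplastic libraries, and 8.72, 9.47 and 11.3 CPM in the treated libraries. Every control library was above every hypoplastic library, treated or not, and the hypoplastic and treated libraries overlapped. The group levels were 30.1 CPM ± 6.80 (SD, n = 3) in control, 12.4 CPM ± 2.18 (SD, n = 3) in hypoplastic and 9.82 CPM ± 1.32 (SD, n = 3) in treated lungs.

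Hypoplastic lungs had 2.43-fold less Lepr than control lungs, a log2 difference of -1.28 (SE 0.199). The adjusted p of edgeR's quasi-likelihood test over all genes was 0.185, which did not pass 0.05. Without hypoplastic library 1 the difference was -1.35, and without hypoplastic library 2 it was -1.14. It was smallest, at -1.09 (edgeR adjusted p 0.596), without control library 2, which had the highest Lepr level. Lower values without overlap were found for 9.05% of the 12966 genes tested in this comparison, and edgeR called 0.00771% of them. DESeq2 called Lepr here, with an adjusted p of 3.193e-06, among 1.56% of 12926 genes. The control libraries of this comparison are those by which the gene was chosen, so these p-values are not independent evidence. Between treated and hypoplastic lungs the log2 difference of Lepr was -0.33 (SE 0.198, 95% interval -0.78 to 0.11, edgeR adjusted p 0.915), so a treated level as much as 0.11 above or 0.78 below the untreated one on the log2 scale lies within the interval. The treated lungs had 3.06-fold less Lepr than control lungs, a log2 difference of -1.62 (SE 0.200) that is given as a description. Lower values without overlap occurred for 5.02% of genes there, which was the comparison used for the choice.

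**Figure D1:**
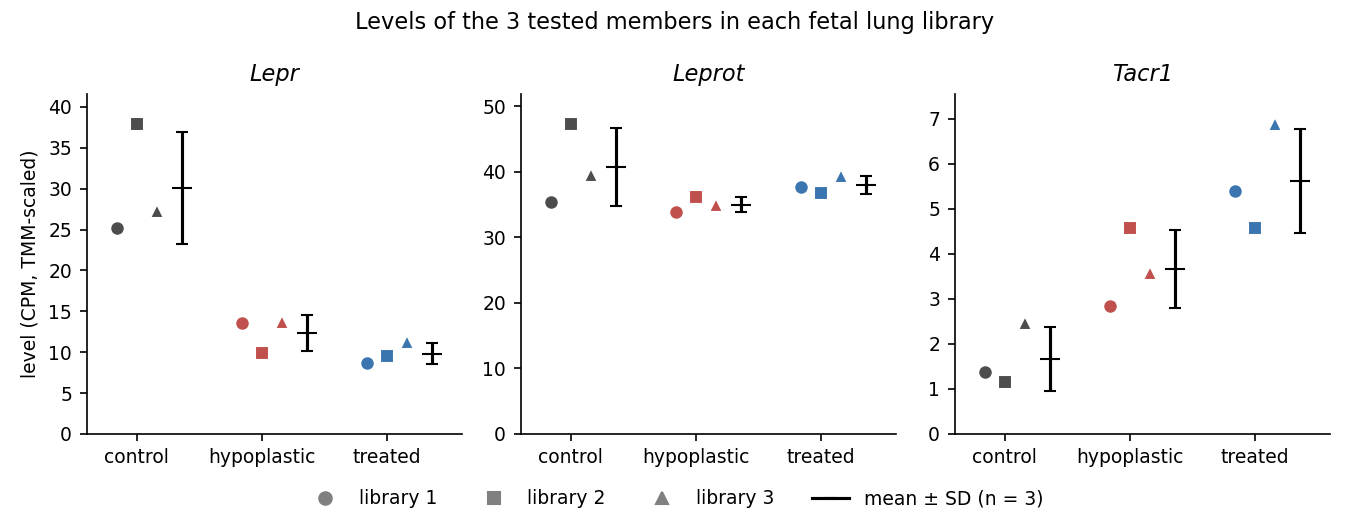
Level of Lepr, Leprot and Tacr1 in CPM (vertical axes from 0, each gene on its own scale) in each library of the 3 groups, with symbols for the library number and black bars for the mean ± SD of 3 libraries. Control libraries stand highest for Lepr (25.2 to 37.9 CPM) and lowest for Tacr1 (1.16 to 2.47 CPM), while Leprot lies between 33.8 and 47.2 CPM in all 9.

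Leprot, which shares its locus with Lepr, had like levels in the 3 groups. It was at 35.4, 47.2 and 39.5 CPM in the control libraries, 33.8, 36.2 and 34.97 CPM in the hypoplastic libraries and 37.7, 36.8 and 39.4 CPM in the treated libraries. Control library 2 was the highest of the 9, as it was for Lepr, and control values overlapped those of both other groups. The 3 treated libraries lay just above the 3 hypoplastic ones, a pattern that 5.07% of genes showed in that direction. Hypoplastic and control lungs differed by -0.22 on the log2 scale (SE 0.117, 95% interval -0.48 to 0.04, edgeR adjusted p 0.475), and by -0.10 without control library 2. The log2 differences were 0.12 between treated and hypoplastic lungs (SE 0.117, interval -0.14 to 0.38, edgeR adjusted p 0.942) and -0.10 between treated and control lungs (SE 0.117, interval -0.36 to 0.16, edgeR adjusted p 0.998). In the last comparison the difference was 0.02 without control library 2. edgeR called 0 genes in each of the last 2 comparisons (0.0% of 12966), where 721 and 541 genes had an unadjusted p under 0.05, DESeq2 called 17 and 14, and limma voom called 0 in both.

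The count of Lepr as a share of the Leprot count in the same library does not depend on library size. It was 71.1, 80.1 and 69.0% in the control libraries, 40.0, 27.2 and 39.3% in the hypoplastic libraries and 23.1, 25.8 and 28.6% in the treated libraries. Control libraries again stood apart from the other 6, and hypoplastic library 2 lay within the range of the treated libraries. The group values were 73.4% ± 5.94, 35.5% ± 7.18 and 25.8% ± 2.75 (SD, n = 3 each). The ratio carries the Lepr values used for the choice, so it was not tested, and only its difference between groups can be read, since transcript lengths were not used.

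**Figure D2:**
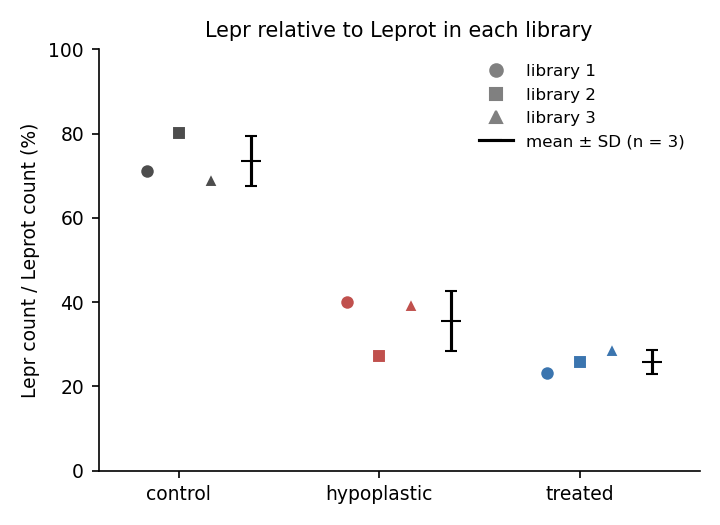
Count of Lepr as a percentage of the count of Leprot (vertical axis from 0) in each library of the 3 groups, with black bars for the mean ± SD of 3 libraries. The control libraries lie at 69.0 to 80.1% and the other 6 libraries at 23.1 to 40.0%.

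No count was assigned to Lep, the ligand gene, in any of the 9 libraries. A count of 0 allows up to 3 counts, or 0.0359 to 0.0543 CPM depending on the library, by counting error alone. Leptin mRNA was therefore not detectable at this depth in any group, and no comparison between groups was possible. Of the 5 adipocyte markers examined, Adipoq, the adiponectin gene, was at 0.0362 CPM or less in every library, and Fabp4, a fatty acid binding protein gene, was at 0.735 to 10.2 CPM.

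Of the 19 genes of leptin receptor signalling that were listed (kinase, STATs, adaptors, phosphatases, SOCS feedback inhibitors and shedding proteases), all 19 were tested and edgeR called 0 in each comparison. Between hypoplastic and control lungs 1 had an unadjusted p under 0.05 and was higher, against 12.4% of all genes tested. The median log2 difference was 0.07 against 0.01 over all genes. DESeq2, which called 1.56% of all genes, called the same gene, and limma voom called 0. That gene was Socs3, the STAT3-induced inhibitor that binds the leptin receptor and other gp130-type receptors. Socs3 was at 9.09, 5.73 and 13.1 CPM in control, 17.3, 25 and 19.8 CPM in hypoplastic and 14.6, 12.5 and 14.0 CPM in treated libraries. The hypoplastic libraries were above all others, and the treated libraries overlapped the controls. Higher values without overlap between hypoplastic and control lungs were found for 7.68% of all genes. The log2 difference of Socs3 from control was 1.15 in hypoplastic lungs (SE 0.266, edgeR adjusted p 0.317, DESeq2 adjusted p 0.00713), and treated lungs differed from hypoplastic lungs by -0.59 (SE 0.262, edgeR adjusted p 0.895).

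The receptor-bound kinase gene Jak2 was at 46.9 to 109 CPM in hypoplastic lungs and 39.2 to 59.8 CPM in control lungs, with hypoplastic library 2 alone above the rest, and differed by 0.52 (SE 0.295, edgeR adjusted p 0.4999). Irs1, an adaptor of insulin and leptin signalling, differed by 0.28 (SE 0.145, edgeR adjusted p 0.466) in that comparison. Leprotl1, the paralog of Leprot, was at 13.4 to 15.5 CPM in control and 14.6 to 19.5 CPM in treated libraries, a log2 difference of 0.17 (SE 0.157, edgeR adjusted p 0.998). Cish, a SOCS family gene induced by STAT5, differed by 0.54 (SE 0.356, edgeR adjusted p 0.998) between the same groups. Pik3r1, a regulatory subunit of PI3 kinase, differed by 0.17 (SE 0.126, edgeR adjusted p 0.940) between treated and hypoplastic lungs. Over the whole list, 1 gene (Socs3, lower) between treated and hypoplastic lungs and 0 between treated and control lungs had an unadjusted p under 0.05, against 5.56% and 4.17% of all genes, and neither DESeq2 nor limma voom called a gene in those 2 comparisons.

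Of the other class I cytokine receptor genes listed, the family to which Lepr belongs, 11 were tested, and edgeR, DESeq2 and limma voom called 0 in each comparison. The median log2 difference was 0.13 for hypoplastic minus control, 0.03 for treated minus hypoplastic and 0.12 for treated minus control lungs. Over all genes these medians were 0.01, -0.01 and 0.003. The only unadjusted p under 0.05 was that of Osmr, in hypoplastic against control, where 12.4% of all genes had one. In the other 2 comparisons 5.56% (treated against hypoplastic) and 4.17% (treated against control) of all genes did. Osmr, the oncostatin M receptor gene, was at 6.83, 4.08 and 8.87 CPM in control and 10.4, 33.6 and 10.5 CPM in hypoplastic libraries, a log2 difference of 1.46 (SE 0.473, edgeR adjusted p 0.325) with hypoplastic library 2 far above the other 2. It differed by -1.02 between treated and hypoplastic lungs (SE 0.465, edgeR adjusted p 0.901). Il11ra1, an interleukin 11 receptor gene, differed by -0.33 (SE 0.167, edgeR adjusted p 0.451) in hypoplastic lungs and by -0.30 (SE 0.166, edgeR adjusted p 0.998) in treated lungs from control. Ghr, the growth hormone receptor gene, differed by -0.18 (SE 0.118, edgeR adjusted p 0.562) in hypoplastic lungs, and Lifr, the LIF receptor gene, by -0.12 (SE 0.106, edgeR adjusted p 0.998) in treated lungs from control. Csf3r and Cntfr varied more widely, from 1.39 to 6.74 CPM and from 2.64 to 25.4 CPM over the 9 libraries.

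In the list of 10 PTHrP, lipofibroblast and surfactant genes, the cells and products with which leptin is linked in lung development, all 10 were tested and edgeR and limma voom called 0 in each comparison. Between hypoplastic and control lungs 1 gene was higher and 2 lower at an unadjusted p under 0.05, against 12.4% of all genes, and the median log2 difference was -0.13 against 0.01 over all genes. DESeq2, which called 1.56% of all genes, called the 2 lower ones, Sftpc and Sftpb, whose values are known from the earlier analysis that chose the members. The higher one was Pthlh, which encodes parathyroid hormone-related protein, the epithelial signal to lipofibroblasts. It was at 0.143 to 0.521 CPM in control, 0.308 to 2.27 CPM in hypoplastic and 0.661 to 1.07 CPM in treated libraries, so its hypoplastic and control libraries overlapped, and the log2 difference was 2.07 (SE 0.667, edgeR adjusted p 0.325). Pthlh was outside the naming rule, which asks for 1 CPM, and was named after its values were seen. Plin2, a lipid droplet coat gene, was at 40.4 to 61.9 CPM in control and 54.6 to 115 CPM in hypoplastic libraries, a log2 difference of 0.59 (SE 0.276, edgeR adjusted p 0.424). The medians of the list were 0.13 between treated and hypoplastic and -0.02 between treated and control lungs, with 1 gene at an unadjusted p under 0.05 in each (Sftpc higher, Sftpb lower), against 5.56% and 4.17% of all genes, and none called by DESeq2. Sftpa1 and Fabp5 differed by 0.48 (SE 0.323) and 0.19 (SE 0.237) between treated and hypoplastic lungs, with edgeR adjusted p of 0.929 and 0.955.

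**Figure D3:**
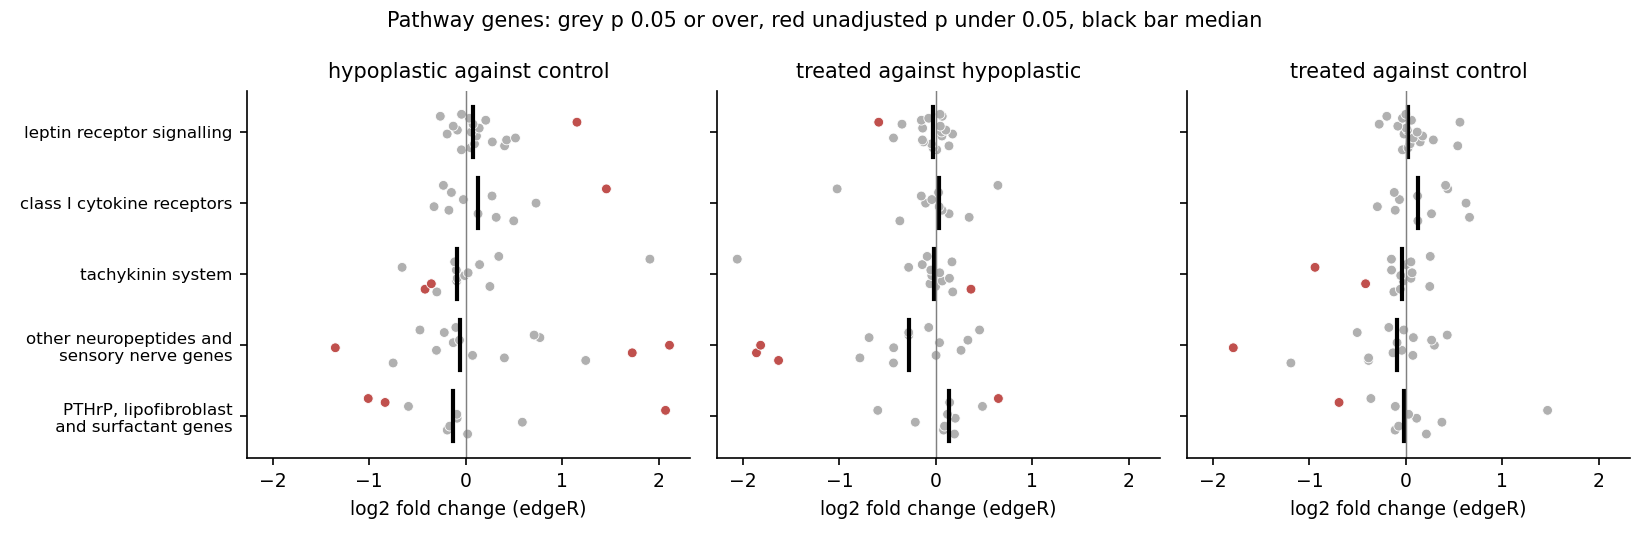
Log2 fold changes (horizontal axis, edgeR) of the tested genes of the 5 listed gene groups in the 3 comparisons, 1 dot a gene, red where the unadjusted p was under 0.05, with a black bar at the median of each list. The medians lie near 0 in all panels, the farthest being -0.28 for the other neuropeptide and sensory nerve genes between treated and hypoplastic lungs.

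Tacr1, the substance P receptor gene, was higher in both groups of hypoplastic lungs than in control lungs. Its level was 1.36, 1.16 and 2.47 CPM in the control libraries, 2.84, 4.57 and 3.57 CPM in the hypoplastic libraries and 5.40, 4.58 and 6.87 CPM in the treated libraries. No 2 groups overlapped, in the order control, hypoplastic, treated, but the highest hypoplastic library (4.57 CPM) and the lowest treated library (4.58 CPM) all but touched, and control library 3 was near the lowest hypoplastic library. These values rest on 64.9 to 182 estimated counts in control, 186 to 280 in hypoplastic and 383 to 468 in treated libraries, the fewest of the 3 tested members.

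Hypoplastic lungs had 2.17-fold the Tacr1 level of control lungs, 3.66 CPM ± 0.872 against 1.66 CPM ± 0.704 (SD, n = 3 each). On the log2 scale this was 1.12 higher (SE 0.319), with an edgeR adjusted p of 0.317 and a DESeq2 adjusted p of 0.0536, so neither passed 0.05, and higher values without overlap were found for 7.68% of genes. Omitting hypoplastic library 1 gave a difference of 1.28, and omitting hypoplastic library 2 or control library 2 gave 0.92. The largest, 1.53, came from omitting control library 3. Treated lungs were at 5.62 CPM ± 1.16 (SD, n = 3), which was 0.62 above hypoplastic lungs on the log2 scale (SE 0.298, 95% interval -0.05 to 1.29, edgeR adjusted p 0.901), a direction without overlap that 5.07% of genes had. As for Lepr, these comparisons share the control or the treated libraries with the one that chose the gene. The treated lungs had 3.33-fold the control level, a log2 difference of 1.74 (SE 0.315) given as a description, in a comparison where 4.37% of genes were higher without overlap.

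**Figure D4:**
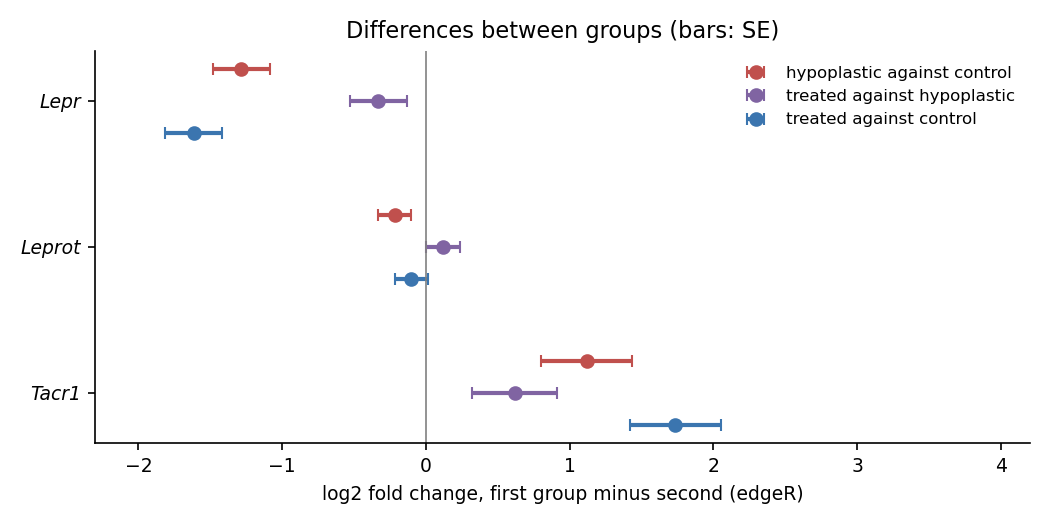
Log2 fold changes of Lepr, Leprot and Tacr1 (rows) in the 3 comparisons (colours), as first group minus second from the edgeR fit, with bars for the SE. Lepr lies below 0 and Tacr1 above 0 in each comparison, with the smallest differences, -0.33 and 0.62, between treated and hypoplastic lungs, and Leprot stays between -0.22 and 0.12.

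Tac1, the gene of substance P itself, was at the limit of detection. It had 1, 0 and 3 counts in the control libraries, 4, 5 and 0 in the hypoplastic libraries and 1, 0 and 0 in the treated libraries, 14 in all 9, and was set aside by the filter. The groups overlapped and no fold change is given at these counts. Tac4 (hemokinin) reached 6 counts in a library and Tacr3 9, and both were set aside. Tac3 (neurokinin B) and Tacr2 had more counts, up to 63 and 38 in a library, and were tested at 0 to 1.03 CPM and 0.0543 to 0.579 CPM. Tacr1 was thus the only gene among the tachykinins and their receptors with 1 CPM or more in every library, although counts of different genes also depend on transcript length.

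Of the 16 listed genes of the tachykinin system (paralogs, G proteins, arrestins and peptide-degrading enzymes), 14 were tested, and edgeR, DESeq2 and limma voom called 0 in each comparison. The median log2 difference was -0.09 for hypoplastic minus control, -0.02 for treated minus hypoplastic and -0.04 for treated minus control lungs. An unadjusted p under 0.05 was found for 2 lower genes, 1 higher gene and 2 lower genes of the 14 in that order, against 12.4%, 5.56% and 4.17% of all genes. Arrb1 encodes an arrestin that ends signalling of receptors such as Tacr1. Its level was 22.4, 27.2 and 21.4 CPM in control, 17.5, 18.0 and 17.5 CPM in hypoplastic and 20.8, 24.0 and 23.3 CPM in treated libraries. The hypoplastic libraries were the lowest 3 of the 9 and treated and control libraries overlapped, with log2 differences of -0.42 (SE 0.124, edgeR adjusted p 0.317) from control and 0.36 (SE 0.124, edgeR adjusted p 0.859) from hypoplastic to treated lungs.

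Mme encodes neprilysin, a membrane peptidase that degrades substance P. It was at 15.5, 42.6 and 31.2 CPM in control, 19.7, 18.1 and 18.7 CPM in hypoplastic and 20.1, 14.5 and 11.9 CPM in treated libraries. Control libraries 2 and 3 were the highest and control library 1 lay among the others, and treated lungs differed from control by -0.94 on the log2 scale (SE 0.319, edgeR adjusted p 0.998). Dpp4, a further peptidase gene that acts on substance P, was at 22.3 to 28.8 CPM in control, 16.6 to 22.4 CPM in hypoplastic and 16.5 to 20.3 CPM in treated libraries. Its log2 differences from control were -0.36 (SE 0.155, edgeR adjusted p 0.397) and -0.42 (SE 0.155, edgeR adjusted p 0.998). Ace, the angiotensin-converting enzyme gene, differed by -0.30 in hypoplastic lungs (SE 0.144, edgeR adjusted p 0.429) and Itpr1, an inositol trisphosphate receptor gene downstream of such receptors, by -0.15 in treated lungs from control (SE 0.0941, edgeR adjusted p 0.998). The signalling genes Plcb3 and Gna11 differed by 0.17 (SE 0.0915) and 0.14 (SE 0.112) between treated and hypoplastic lungs, with edgeR adjusted p of 0.910 and 0.940.

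Of 21 other neuropeptide and sensory nerve genes listed, 15 were tested, and edgeR and limma voom called 0 in each comparison. Calcb, Vip, Grp, Nmbr and Trpa1 were among those set aside, and Trpa1, a channel of sensory nerves, was at 0 in all libraries. Between hypoplastic and control lungs 2 genes were higher (Ngfr and Chrm2) and 1 lower (Grpr) at an unadjusted p under 0.05, against 12.4% of all genes, with a median of -0.07. DESeq2, which called 1.56% of all genes, called 1 of them, Ngfr, a nerve growth factor receptor gene also made by nerve-associated and mesenchymal cells, with an adjusted p of 0.0233. Ngfr was at 0.380 to 0.446 CPM in control, 0.742 to 3.09 CPM in hypoplastic and 0.323 to 0.622 CPM in treated libraries. Its hypoplastic libraries stood above both other groups without overlap (log2 difference from control 2.11, SE 0.529, edgeR adjusted p 0.317). Between hypoplastic and control lungs 7.68% of all genes were higher without overlap.

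Between treated and hypoplastic lungs Ngfr, Chrm2 and Adcyap1r1 were lower at an unadjusted p under 0.05, against 5.56% of all genes, with a list median of -0.28. Between treated and control lungs Grpr was lower, against 4.17% of all genes, with a median of -0.09, and DESeq2 called 0 in both comparisons. Ngfr, Chrm2, Grpr and Adcyap1r1 averaged under 1 CPM and were named after their values were seen. Among the genes of at least 1 CPM, the neuropeptide Y receptor gene Npy1r differed by 0.77 (SE 0.457, edgeR adjusted p 0.513) in hypoplastic lungs and by -0.69 (SE 0.448, edgeR adjusted p 0.921) from hypoplastic to treated lungs. The VIP receptor gene Vipr1 differed by -0.48 (SE 0.312, edgeR adjusted p 0.553) and 0.45 (SE 0.309, edgeR adjusted p 0.931) in the same 2 comparisons. Ramp1, Npy and Vipr2 differed from control by 0.43, 0.27 and -0.18 in treated lungs, with edgeR adjusted p of 0.998 for each.

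Across the 9 libraries the log2 levels of Lepr and Tacr1 ran in opposite directions, with a Pearson's r of -0.907. The r of their deviations from the group means was -0.394, so much of the relation lies in the group means by which both genes were chosen. For Lepr and Leprot the r was 0.564 and that of the deviations 0.600, and control library 2 was the highest library for both. These correlations are descriptions over 9 libraries in 3 groups that share library scaling.

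The 5 genes with the highest r with Lepr among 11352 genes of at least 1 CPM were Atp6v1a (0.974) and Atp6v1c1 (0.932), subunit genes of the proton pump that acidifies lysosomes, Wdr45 (0.959), an autophagy gene, Ugt1a8 (0.935), a glucuronosyltransferase gene, and Arl8b (0.928), a small GTPase gene of lysosome transport. The r of deviations from group means was 0.929, 0.616, 0.831, 0.706 and 0.701 in that order. Their levels spanned much less than that of Lepr: the log2 range over the libraries was 0.43 for Atp6v1a, 0.40 for Wdr45 and Atp6v1c1, 0.31 for Arl8b and 1.05 for Ugt1a8, against 2.12 for Lepr. Ugt1a8 belongs to a cluster of genes with common exons, so its count is uncertain.

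With Tacr1 the highest r was that of Fez2 (0.968), Serinc2 (0.948), Lyc2 (0.941), Fam136a (0.934) and Snai1 (0.920), with r of deviations of 0.944, 0.960, 0.813, 0.865 and 0.851. Snai1 encodes a repressor of epithelial genes and was at a mean of 19.1, 26.0 and 31.7 CPM in control, hypoplastic and treated lungs. Fez2, of a family of axonal transport adaptors, had means of 3.4, 4.47 and 5.11 CPM in the same order. The log2 range over the libraries was 0.40 to 1.38 for these 5 genes and 2.56 for Tacr1. Lyc2 is a lysozyme gene with close paralogs and its count is uncertain. These lists hold the highest of 11352 correlations over 9 libraries and carry no test.

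**Figure D5:**
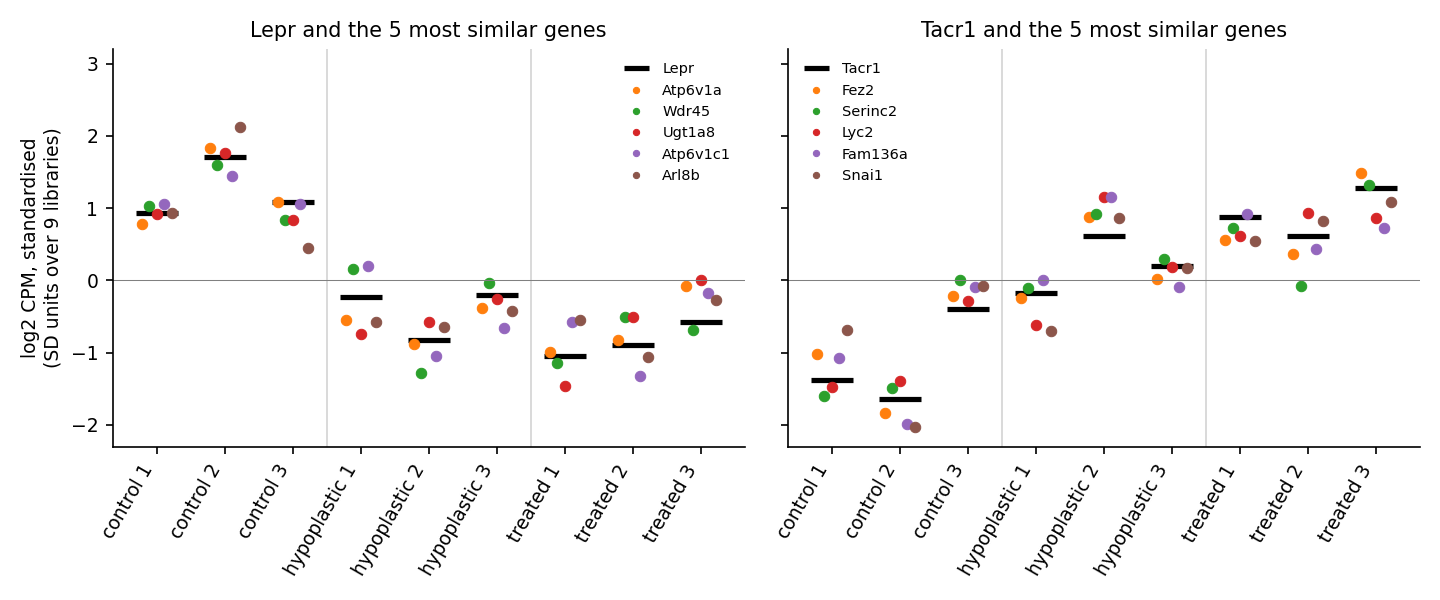
Log2 CPM of Lepr (left, black bars) and Tacr1 (right, black bars) and of the 5 genes with the highest Pearson's r with each (coloured dots), standardised to SD units over the 9 libraries, so that differences in size are removed. For Lepr all genes are highest in the control libraries, above all control 2, and for Tacr1 all lie below their own mean in control libraries 1 and 2.

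The genes beside Tacr1 overlapped between control lungs and either other group. In RefSeq's gene order Eva1a and Mrpl19 lie on one side and Pole4 and Hk2 on the other. Their log2 differences between hypoplastic and control lungs were 0.12 (SE 0.266), 0.23 (SE 0.143), -0.12 (SE 0.147) and 0.08 (SE 0.259), and their differences between treated and control lungs ran from -0.04 to 0.31, with overlap of the libraries in each. On the side of Lepr before Leprot lies Dnajc6, at a mean of 0.371 CPM, which differed by 0.31 (SE 0.579) in hypoplastic and by -1.005 (SE 0.652) in treated lungs from control, with overlap. The 2 protein-coding genes on the other side of Lepr were not analysed here.

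In whole-lung RNA, fewer cells of a type and less RNA per cell cannot be told apart. Of 18 cell type marker lists, the summed CPM of 2 did not overlap between hypoplastic and control lungs, where 9.05% of single genes were lower and 7.68% higher without overlap. The 5 alveolar type II markers summed to 2570 to 4740 CPM in control, 1810 to 2090 CPM in hypoplastic and 2200 to 2970 CPM in treated libraries. The 4 skeletal muscle markers summed to 9.09 to 10.7 CPM in control, 13.4 to 16.9 CPM in hypoplastic and 10.2 to 14.8 CPM in treated libraries. Between treated and control libraries 1 of the 18 sums did not overlap, where 5.02% of single genes were lower and 4.37% higher without overlap. It was that of the adipocyte markers, at 1.54 to 3.34 CPM in treated and 0.950 to 1.48 CPM in control libraries. The hypoplastic libraries, at 1.24 to 14.9 CPM, overlapped the controls. Most of that sum was Fabp4, at 1.21 to 2.86 CPM in treated and 0.735 to 1.18 CPM in control libraries. Retn was also higher without overlap, but near the limit of detection, at 0.079 to 0.103 CPM in treated and 0.0 to 0.0542 CPM in control libraries. In hypoplastic library 2 Retn was at 4.34 CPM. The treated and control means of Plin1 were 0.0832 and 0.0735 CPM and those of Cidec 0.223 and 0.198 CPM.

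Endothelial markers were at like levels, 932 to 1190 CPM in control, 929 to 1130 CPM in hypoplastic and 858 to 1160 CPM in treated libraries, as were pericyte markers (194 to 361 CPM over all 9). Fibroblast markers ran from 1140 to 3380 CPM in control and from 2640 to 9600 CPM in hypoplastic libraries, and smooth muscle markers from 156 to 382 and from 323 to 644 CPM, both with overlap. Neuron markers summed to 6.46 to 20.5 CPM in control, 20.4 to 31.3 CPM in hypoplastic and 12.9 to 31.0 CPM in treated libraries. Ret was the largest part of that sum in every library, at 2.93 to 27.2 CPM. Between hypoplastic and control libraries Ret, Tubb3, Elavl4 and Snap25 overlapped. Prph was higher without overlap, as 7.68% of all genes were, at 2.19 to 5.61 against 0.892 to 1.49 CPM. Neuroendocrine markers summed to 0.553 to 2.39 CPM over all 9. Leukocyte markers ran from 237 to 371 CPM in control, 308 to 491 CPM in hypoplastic and 350 to 458 CPM in treated libraries, most of it from Lyz2 (198 to 332 CPM over all 9). The neutrophil genes S100a8 and S100a9 of this list were higher in both other groups than in control without overlap, as Tacr1 was. Against control, 7.68% of all genes were higher without overlap in hypoplastic and 4.37% in treated lungs. The other leukocyte markers, Ptprc, Cd68, Csf1r, Lyz2 and Cd3e, overlapped, and S100a8 and S100a9 are outside the rule by which genes were named. S100a8 was at 2.71 to 4.57 CPM in control, 19.8 to 39.0 CPM in hypoplastic and 7.82 to 30.1 CPM in treated libraries, and S100a9 at 2.06 to 3.95, 21.6 to 36.1 and 6.94 to 35.8 CPM. The part of these cell types and genes in the levels of Lepr and Tacr1 was not tested.

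By Xist and the Y-linked genes, 2 control lungs, 1 hypoplastic lung and 1 treated lung were male. Among female lungs Lepr was at 27.3 CPM in the control lung, 13.5 and 9.85 CPM in hypoplastic and 8.72 and 9.47 CPM in treated lungs, and among male lungs at 25.2 and 37.9, 13.7 and 11.3 CPM. Tacr1 among female lungs was at 2.47 CPM in control, 2.84 and 4.57 CPM in hypoplastic and 5.40 and 4.58 CPM in treated lungs, and among male lungs at 1.36 and 1.16, 3.57 and 6.87 CPM. With a sex term in the fit, the log2 difference between hypoplastic and control lungs was -1.20 for Lepr and 1.09 for Tacr1, with edgeR adjusted p of 0.367 and 0.584.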

How the data were processed

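RNA of 9 fetal rat lungs was sequenced after depletion of ribosomal RNA, and all extractions were made on the same day, per the labels' protocols. The authors deposited 1 table of estimated counts for 17465 NCBI Gene IDs, of whose nonzero values 19.5% were whole. Per the submitters' processing notes the genome build is rn7 and DESeq2 was among the tools; the sources used here do not give the aligner, the counting settings or the annotation, so how reads shared by genes were assigned is not known. The control columns, whose names shorten the labels, were matched by group and number. Symbols came from RefSeq's GRCr8 table (99.1% of IDs matched), used for names and gene order only; promoter windows carry that table's own coordinates.

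Estimated counts were rounded and tested with edgeR 4.0.16 in R 4.3.3 (TMM, filterByExpr by group, glmQLFit with legacy=FALSE, glmQLFTest), 1 fit of all 9 libraries with 6 residual degrees of freedom, which kept 12966 genes, with Benjamini-Hochberg adjustment over them and calls under 0.05. Standard errors are the absolute log2 change over the square root of F. Alternatives were DESeq2 1.42.0, limma 3.58.1 (voom), RLE factors, other filters, only the libraries compared, a replicate block, a sex term, removal of 6 ribosomal and 7SL rows, and omission of each library. The edgeR script was tested on simulated data.

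The members, gene lists and tests were chosen with earlier results of these data known. Genes were named by rule: the 5 members, up to 3 genes of smallest p per list and comparison with a mean of at least 1 CPM, the 5 genes of highest r with each receptor (log2 CPM, prior 0.5), and neighbours. The lists were leptin receptor signalling, class I cytokine receptors, the tachykinin system, other neuropeptide and sensory nerve genes, and PTHrP, lipofibroblast and surfactant genes, with 78 genes in all, of which 69 were tested. Airway, Schwann cell, mesothelial, alveolar type I, erythroid, cardiac, cartilage and liver markers were also summed, and their libraries overlapped between groups compared with control.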

Additional observations from a re-analysis of the deposited data

How the results depend on the processing

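Over 162 refits of the 3 tested members (18 alternatives in each of 3 comparisons), 160 kept the direction and the side of the threshold, or, where no test was made, stayed within the spread between libraries. Because edgeR called 1, 0 and 0 of 12966 genes in the main fit, most genes would keep their side of the threshold. That count therefore says little about the members. DESeq2 called Lepr in hypoplastic against control (-1.28, adjusted p 3.193e-06); the cause was not tested. Leprot in treated against control ran from -0.177 to 0.0193 when 1 library was left out, positive only without control library 2. Leaving out 1 library, the edgeR adjusted p between hypoplastic and control ran from 0.0586 to 0.596 for Lepr and from 0.310 to 0.762 for Tacr1. No label ties libraries of the same number together. Deviations from group means correlated at -0.260 to 0.195 between same-numbered libraries of different groups, over 0.1 in 3 of 9 pairs. Between libraries of other number they correlated at -0.417 to 0.360, over 0.1 in 6 of 18 pairs. With the replicate block the differences in hypoplastic against control were -1.28 for Lepr and 1.18 for Tacr1, no member's call changed, and edgeR called 2 genes there.

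The count of genes called in hypoplastic against control was 202 with DESeq2, 4 with only the 6 libraries compared and 0 to 45 with 1 library left out (0 without control library 1 or 3, 2 without hypoplastic library 1, 5 without treated library 2, 45 without hypoplastic library 3). For treated against hypoplastic it was 17 with DESeq2 and 0 to 44 (2 without hypoplastic library 1, 44 without hypoplastic library 3), and for treated against control 14 with DESeq2 and 0 to 1 (1 without control library 2). With 1 library left out, 10 of the 15 list medians took either sign. The median of the other neuropeptide and sensory nerve list in treated against hypoplastic then ran from -0.724 to -0.168, farthest without hypoplastic library 2 or treated library 3, and that of the PTHrP, lipofibroblast and surfactant list in treated against control from -0.0234 to 0.119, highest without control library 2. The cause was not tested. Depth limits Lep, Tac1, Tac4 and Tacr3, which were at 9 counts or fewer in each library.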
